A study of Homo sapiens with 27 samples.

Results

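TBXT, EOMES, MIXL1, MESP1 and GSC are transcription factors of the primitive streak, and all of their probes on the arrays were followed by day, arm and time course. The rule was the gene symbol alone, with TBXT also accepted under its older symbol T, and the 5 genes were named with earlier results of these data known. It gave 6 probes of 47323 and 5 genes of 20046 with a named probe. TBXT had 2 probes and the other genes had 1 each.

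The primitive streak is the structure of the early embryo through which epiblast cells leave the epithelium to form mesoderm and endoderm. WNT, NODAL and BMP signals induce it, and cells on their way to the heart pass through it before they take on a cardiac identity. TBXT (Brachyury), a T-box factor, is a direct target of WNT signalling that marks the streak and is needed for posterior mesoderm, and EOMES, another T-box factor, acts with NODAL signalling in early mesoderm and definitive endoderm. MIXL1 is a homeobox factor of the streak and nascent mesendoderm, MESP1 is a basic helix-loop-helix factor of early cardiovascular mesoderm, and GSC is a homeobox factor of the organizer and anterior streak.

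The cells were HuES6, an established human embryonic stem cell line. The labels place them on Matrigel, and the undifferentiated cells of day 0 in FTDA medium. For 24 hours from day 0 the cells were given FGF2 (10 ng/ml), BMP4 (1 ng/ml) and a CHIR compound (CHIR00921 in the labels, 1 µM) to start cardiac differentiation, and insulin, present on day 0, was left out from day 1 on. The IWP-2 arm received IWP-2, an inhibitor of the acyltransferase Porcupine that WNT proteins need for secretion, at a dose for which the labels give no number. Time course 1 had it on days 2 and 3, and time course 2 had it on days 1 and 2. Its arrays covered days 3, 4, 5, 6 and 8 in both courses and day 2 in time course 2. The arm without inhibitor received the same induction and was sampled on days 2, 3, 4, 5, 6 and 8, after arrays of days 0 and 1 that preceded the arms. Each day and arm held 1 array per course, so groups had 2 arrays except IWP-2 on day 2, which had 1. In all there were 27 arrays, 13 in time course 1 and 14 in time course 2.

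The number of probes above background per array was 16424 to 19784, and mean signal ran from 225.2 (IWP-2, day 8 of time course 2) to 349.5. Precision is limited by how few arrays there are, and the labels do not say that courses or days came from separate cultures, so p-values measure only how these arrays vary, and that variation may be technical. Levels are given as normalized log2 intensity, on which 1 unit is a factor of 2, and a probe counted as above background on an array where its detection p-value was below 0.01. The lowest value above background lay between 4.72 and 5.13 on the arrays. Levels of different probes are not compared. In bulk RNA, fewer cells that express a gene and less RNA per cell cannot be told apart.

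The labelled cell state was checked against marker genes. POU5F1, NANOG and SOX2 were above background on both day 0 arrays, and their summed intensity was 59.6 to 59.9 on day 8 with IWP-2 and 65.4 to 67.3 on day 8 without inhibitor, against 6386 to 8022 on day 0. NKX2-5, TBX5, TBX20 and MYOCD, markers of cardiac progenitors, summed to 3550 to 4454 on day 8 with IWP-2, against 82.9 to 83.9 on day 8 without inhibitor. All 4 of these cardiac markers were below background in the arm without inhibitor on that day.

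The windows before the gene starts are shown because the members' levels were correlated and because a known recognition sequence of WNT effectors lies in some of them. They are 250 bases of RefSeq sequence (GRCh38.p14), written 5′ to 3′ on the gene's strand and ending at the base before the start. 3 motifs were searched on both strands: CTTTGA for TCF/LEF factors, which act for WNT at its targets, AGGTGT for T-box factors and AATNNACA for FOXH1, a NODAL effector. Capitals mark the matches. No 2 matches overlapped. TBXT has 2 starts in the table, and the files do not say which of them the probes read. The second TBXT start and the EOMES start lie inside the gene spans given below. Their windows therefore lie within those spans and not upstream of the whole gene.
TBXT, second start, chr6:166167852-166168101, minus strand: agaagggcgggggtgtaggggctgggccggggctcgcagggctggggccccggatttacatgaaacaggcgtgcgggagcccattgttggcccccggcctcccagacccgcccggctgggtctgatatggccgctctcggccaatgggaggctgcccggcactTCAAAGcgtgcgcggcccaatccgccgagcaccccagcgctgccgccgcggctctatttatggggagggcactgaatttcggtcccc
MIXL1, chr1:226223414-226223663, plus strand: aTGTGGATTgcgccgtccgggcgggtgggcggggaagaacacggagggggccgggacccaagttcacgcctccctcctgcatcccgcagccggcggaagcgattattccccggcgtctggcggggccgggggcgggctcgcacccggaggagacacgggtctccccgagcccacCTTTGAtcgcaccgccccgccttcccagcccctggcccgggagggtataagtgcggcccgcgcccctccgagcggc
EOMES, chr3:27722324-27722573, minus strand: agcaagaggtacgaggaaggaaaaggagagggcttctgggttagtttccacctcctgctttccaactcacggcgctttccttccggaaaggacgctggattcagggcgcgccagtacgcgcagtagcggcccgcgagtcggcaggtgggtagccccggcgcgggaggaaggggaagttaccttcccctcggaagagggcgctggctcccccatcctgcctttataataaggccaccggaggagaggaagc

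CTTTGA stood in the second TBXT window on the reverse strand, beginning 87 bases before the start, and in the MIXL1 window on the forward strand, 76 bases before the start. The MIXL1 window also held AATNNACA on the reverse strand, 249 bases before the start. No match to the 3 motifs was found in the windows of EOMES, GSC (chr14:94770114-94770363) or the first TBXT start (chr6:166168656-166168905), which says only that these letters are not in these windows. Of 35116 windows of the same length, 11.2% held CTTTGA, 9.57% AGGTGT and 9.88% AATNNACA. No window was available for MESP1, so it was not searched. A match describes the sequence and shows no binding.

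In the same build TBXT spans bases 166157656 to 166168655 of chromosome 6, EOMES 27715953 to 27722713 of chromosome 3 and MIXL1 226223664 to 226227060 of chromosome 1. MESP1 spans 89732446 to 89751249 of chromosome 15 and GSC 94768223 to 94770113 of chromosome 14. The 2 TBXT probes carry the same transcript accession in the array annotation, and their levels had a Pearson correlation of 0.97 over the 27 arrays. The brighter TBXT probe was above background on 11 arrays and the second on 7. EOMES was above background on 15 arrays, MIXL1 on 16, MESP1 on 26 and GSC on 5. All 6 probes passed the filter on dim probes, which kept 23933 probes, and GSC passed it through days 1 and 2 only.

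The day 1 levels of all 5 genes lay above those of day 0. On day 1, TBXT had 11.60 (time course 1) and 11.49 (time course 2), against 4.75 and 5.29 on day 0, and only the second of these day 0 values was above background. MIXL1 had 11.78 and 11.34 on day 1, against 4.86 and 4.97 on day 0, both below background. EOMES had 11.62 and 11.31 on day 1, against 6.55 and 8.51 on day 0. EOMES was therefore already above background in the undifferentiated cells of both courses. MESP1 had 8.56 and 10.16 on day 1, against 5.15 and 4.45 on day 0, the last below background. GSC had 5.64 and 6.54 on day 1, against 4.59 and 5.02 on day 0, both below background. The courses lay furthest apart for EOMES on day 0 and for MESP1 on day 1.

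Differences were tested with limma across all 23933 probes, with a block for the time course. A change passed when its p-value, adjusted by the Benjamini and Hochberg method, was below 0.05. Day 1 minus day 0 gave a log2 difference of 6.52 ± 0.34 for TBXT (SE, n = 2 each, limma adjusted p = 5.99e-09) and 3.93 ± 0.44 for EOMES (limma adjusted p = 3.97e-05). MESP1 rose by 4.56 ± 0.45 (limma adjusted p = 1.01e-05). For a gene below background on every array of 1 group, only a lower bound of the fold is given, set against the lowest level above background on those arrays or the gene's own value where that was higher. MIXL1 was at least 97.8-fold higher on day 1 than on day 0 (limma adjusted p = 5.74e-07) and GSC at least 2.20-fold higher (limma adjusted p = 0.0254). GSC entered the test only through the days on which it is high, so it is left out of the count, and the other 4 of 4 genes were called higher, against 0.923% of all tested probes.

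The GSC call held in 9 of 15 alternatives. It was lost without the day 0 array of time course 1 (adjusted p = 0.270 in limma) or the day 1 array of time course 2 (adjusted p = 0.325 in limma), and also without background correction (limma adjusted p = 0.106), with the authors' intensities (limma adjusted p = 0.658), with no filter on dim probes (limma adjusted p = 0.0558) and with array weights (limma adjusted p = 0.0637). Leaving out the day 0 array of time course 1 gave an EOMES difference of 2.82, and leaving out that of time course 2 gave 5.05. The markers of definitive endoderm followed the same order on day 0, as SOX17 had 5.42 in time course 1 and 7.12 in time course 2, FOXA2 7.57 and 8.71, HHEX 5.51 and 6.18, and CXCR4 4.90 and 6.23. All 4 of 4 were higher in time course 2, with a summed intensity of 309.2 in one course and 706.3 in the other. The markers kept this order on day 1, with SOX17 at 5.38 and 6.28 and FOXA2 at 6.70 and 8.11. HHEX then had 4.45 (below background) and 5.52, and CXCR4 4.64 (below background) and 6.91. EOMES had the opposite order on day 1, with 11.62 and 11.31. The share of all probes higher in time course 2 was not counted. The part of these markers in the EOMES level was not tested.

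**Figure D1:**
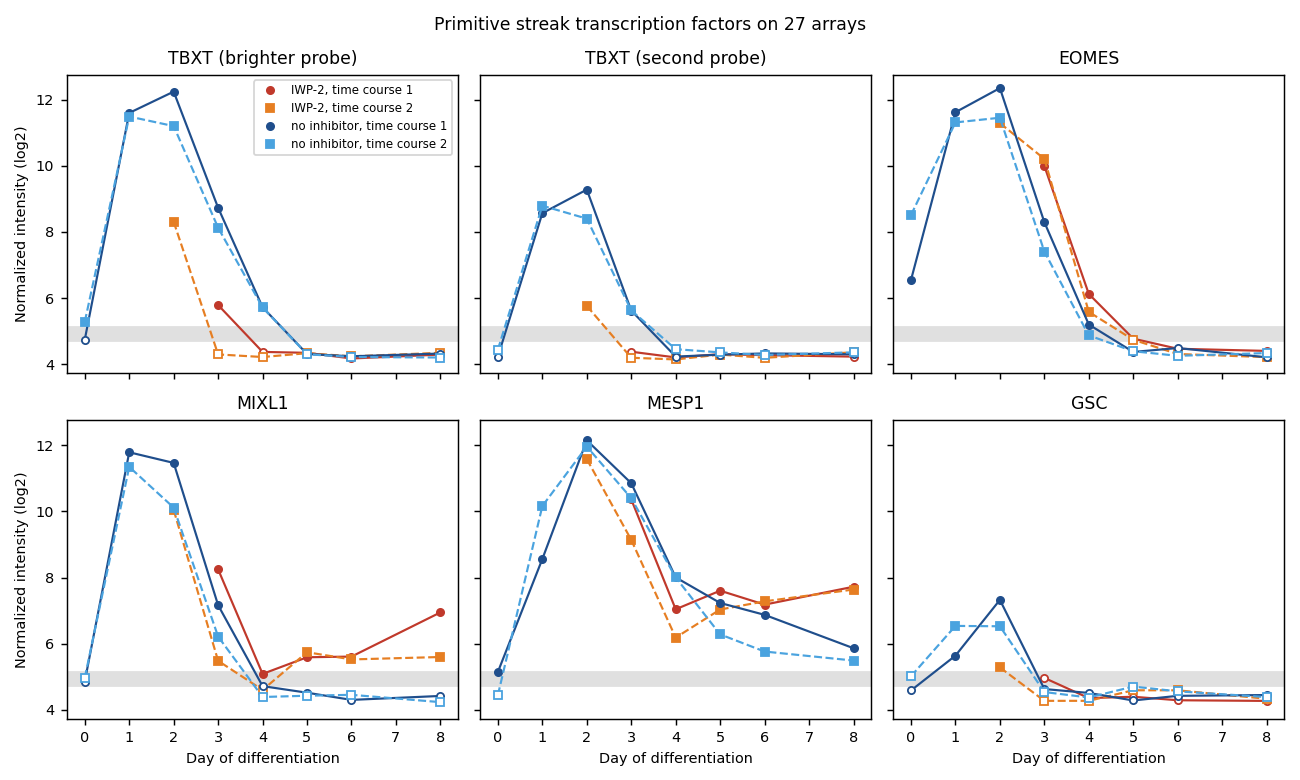
Normalized log2 intensity of each probe (y axis) against day of differentiation (x axis), with IWP-2 arrays in red and orange and arrays without inhibitor in blue, where days 0 and 1 are drawn with the arm without inhibitor. Filled points were above background (detection p-value below 0.01), open points were not, and the grey band is the range over arrays of the lowest level above background, 4.72 to 5.13. TBXT is above background on 1 of 2 IWP-2 arrays on day 3, EOMES stays higher with IWP-2 on day 3, and MIXL1 is above background with IWP-2 on days 5 to 8.

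From day 1 to day 2 without inhibitor, MESP1 rose further. It had 12.14 (time course 1) and 11.95 (time course 2) on day 2, against 8.56 and 10.16 on day 1. It was the only member that passed between these days, with a difference of 2.69 ± 0.45 (SE, n = 2 each, limma adjusted p = 0.00104), against 4.85% of tested probes called higher. With time course 1's day 1 array left out, the MESP1 difference was 1.62 (limma adjusted p = 0.0196). TBXT had 12.24 and 11.20 on day 2, with a difference from day 1 of 0.18 and a 95% interval of -0.53 to 0.89. EOMES had 12.35 and 11.45 on day 2, with a difference of 0.44 and an interval of -0.48 to 1.36. MIXL1 had 11.46 and 10.11 on day 2, with a difference of -0.78 and an interval of -1.85 to 0.30. GSC had 7.32 and 6.53 on day 2, with a difference of 0.84 ± 0.29 (limma adjusted p = 0.0881). The GSC difference passed with time course 2's day 1 array left out (1.30, limma adjusted p = 0.0197) or with its day 2 array left out (1.29, limma adjusted p = 0.0336).

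Among the arrays without inhibitor and those of days 0 and 1, MESP1 and EOMES had their highest level on day 2 in both courses and MIXL1 on day 1 in both courses. TBXT and GSC had theirs on day 2 in time course 1 and on day 1 in time course 2, so their highest day differed between the courses. Against day 0, TBXT, EOMES, MIXL1 and MESP1 passed on day 2, where 5.51% of tested probes were called higher. GSC passed too, again through the filter that its high days opened, and lost its call with the authors' intensities (limma adjusted p = 0.195). MESP1 rose by 7.25 on the log2 scale and TBXT by 6.70, EOMES by 4.37 ± 0.44, and MIXL1 was at least 57.2-fold and GSC at least 3.94-fold higher.

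The other streak and nascent mesoderm genes were read from a list of 25, of which 24 were measured. On day 1, 9 of 24 were higher and 2 lower than on day 0, with a median difference of 0.76, against 134 higher and 228 lower among all 13572 genes tested, with a median of 0.01. On day 2, 19 of 24 were higher and 0 lower than on day 0, with a median of 3.63, against 964 higher and 834 lower of 13572 and a median of 0.00. CDX1, a caudal-type homeobox factor of the posterior streak, was at least 18.2-fold higher on day 1 than on day 0, and WNT5B, a secreted WNT ligand, at least 17.3-fold. SP5, a direct WNT target in several vertebrates, rose by 4.30 ± 0.36 on day 1 (SE, limma adjusted p = 1.55e-06). APLNR, which encodes the apelin receptor, rose by 8.02 on day 2 against day 0, and HAND1, a factor of extraembryonic and cardiac mesoderm, was at least 167.9-fold higher. Between day 1 and day 2, 15 of 24 rose and 2 fell, against 861 higher and 617 lower of 13572, a step that did not pass for TBXT, EOMES or MIXL1.

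NODAL pathway genes moved less uniformly over the same days. NODAL itself rose by 2.62 ± 0.59 on day 1 against day 0 (limma adjusted p = 0.0247) and fell by 4.17 on day 2 against day 1 (limma adjusted p = 0.000244). LEFTY2, a NODAL antagonist, fell by 3.22 ± 0.75 on day 1 against day 0 (limma adjusted p = 0.0291). On day 1 against day 0, 1 of 13 measured genes of the pathway rose and 3 fell, against 134 higher and 228 lower of 13572. On day 2 against day 0, 4 rose and 2 fell, with a median of -0.09, against 964 higher and 834 lower of 13572.

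Without inhibitor, TBXT, EOMES and MIXL1 fell from day 2 to day 3. TBXT had 8.73 (time course 1) and 8.13 (time course 2) on day 3, against 12.24 and 11.20 on day 2, a fall of 3.29 ± 0.34 (SE, n = 2 each, limma adjusted p = 1.17e-05). EOMES had 8.30 and 7.41 on day 3, against 12.35 and 11.45 on day 2, and fell by 4.05 ± 0.44 (limma adjusted p = 1.96e-05). MIXL1 had 7.16 and 6.22 on day 3, against 11.46 and 10.11 on day 2, and fell by 4.10 ± 0.51 (limma adjusted p = 7.45e-05). GSC was below background on both day 3 arrays and was at least 3.74-fold lower than on day 2. MESP1 had 10.85 and 10.40 on day 3, against 12.14 and 11.95 on day 2. Its difference of -1.43 ± 0.45 did not pass (limma adjusted p = 0.0808), although the values did not overlap. It passed with median scaling (-1.64, limma adjusted p = 0.0400), without background correction (-1.38, limma adjusted p = 0.0450) and with array weights (limma adjusted p = 0.0353). In this step 3 of the 4 genes other than GSC were called lower, against 2.92% of tested probes.

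On day 4 without inhibitor, TBXT had 5.73 and 5.72, EOMES 5.20 and 4.88, and MESP1 8.00 and 8.00, while MIXL1 had 4.72 and 4.39, both below background. TBXT fell by 2.71 ± 0.34 against day 3 (SE, n = 2 each, limma adjusted p = 0.000402), EOMES fell by 2.81 ± 0.44 (limma adjusted p = 0.00236) and MESP1 fell by 2.62 ± 0.45 (limma adjusted p = 0.00462). MIXL1 was at least 3.49-fold lower on day 4 than on day 3 (limma adjusted p = 0.0402). These 4 of 5 calls stand against 0.706% of tested probes called lower. The MIXL1 call held in 4 of 15 alternatives and was lost without any 1 of the 4 arrays, with differences between -1.94 and -2.33. With time course 1's day 3 array left out, the EOMES difference was -2.38 and the MESP1 difference -2.57, and neither passed. With its day 4 array left out, the MESP1 difference was -2.42 and did not pass.

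From day 5 on without inhibitor, TBXT, EOMES, MIXL1 and GSC were below background on all 6 arrays, and MESP1 alone remained above it. MESP1 had 7.23 and 6.28 on day 5, 6.87 and 5.76 on day 6, and 5.86 and 5.49 on day 8. Its mean over these days fell by 1.75 ± 0.37 against day 4 (SE, limma adjusted p = 0.00894), and TBXT was at least 1.87-fold lower than on day 4 (limma adjusted p = 0.00451). In this comparison 2 of 5 genes were called lower, against 1.82% of tested probes. Both calls were lost without either of the day 4 arrays, with TBXT at -1.57 and MESP1 at -1.95 when that of time course 1 was left out, and TBXT at -1.34 and MESP1 at -1.55 when that of time course 2 was.

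The first array with IWP-2 was that of day 2 of time course 2, where TBXT and GSC lay lower than on the array without inhibitor and the other genes lay close to it. On that day TBXT had 8.31 on the IWP-2 array, against 11.20 on the array without inhibitor. The second TBXT probe had 5.77 with IWP-2, against 8.40 without inhibitor. EOMES had 11.29 with IWP-2 and 11.45 without inhibitor, MIXL1 had 10.04 and 10.11, and MESP1 had 11.58 and 11.95. The 3 genes thus lay within 0.38 log2 units of the control array, while TBXT lay 2.89 below it, and 10 of the 23933 tested probes lay further below.

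**Figure D2:**
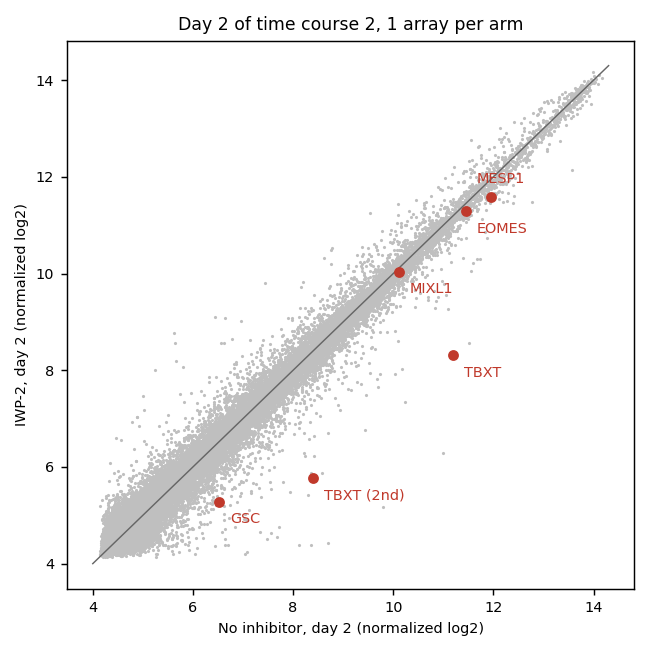
Normalized log2 intensity of all 23933 tested probes on day 2 of time course 2, with IWP-2 on the y axis and without inhibitor on the x axis, 1 array per arm, and the 6 member probes in red; the line marks equal levels. EOMES, MIXL1 and MESP1 lie near the line, and both TBXT probes lie below it, the brighter one at 8.31 with IWP-2 and 11.20 without inhibitor.

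The day 2 control arrays of both courses entered the fitted IWP-2 comparison through the block, not that of time course 2 alone. The fit assumed that the lone IWP-2 array varied like the other groups. It gave a difference of -3.30 ± 0.42 for TBXT (SE, limma adjusted p = 0.000846) and -3.06 ± 0.26 for its second probe (limma adjusted p = 6.22e-06). TBXT was called lower, 1 of the 5 genes, against 0.175% of tested probes, and lost its call with the authors' intensities (-3.05, limma adjusted p = 1.00). The second TBXT probe also lost its call with the authors' intensities (-3.50). Whether TBXT differed from the other genes in its response was not tested. GSC had 5.28 with IWP-2 and 6.53 without inhibitor, and its difference of -1.66 ± 0.36 did not pass (limma adjusted p = 0.0770). It passed without the day 2 control array of time course 2 (-2.15), where only the control of time course 1 was left. The 95% interval of the difference was -1.70 to 0.58 for EOMES, -1.79 to 0.88 for MIXL1 and -1.46 to 0.89 for MESP1, so falls of about 1 log2 unit in these genes were not resolved.

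On the same day 8 of 24 measured streak and nascent mesoderm genes were lower with IWP-2 and 0 were higher, with a median difference of -0.93, against 30 lower and 8 higher of 13572 genes and a median of -0.01. RSPO3, a secreted enhancer of WNT signalling, had a difference of -4.73 ± 0.82 (SE, limma adjusted p = 0.0172), and CDX2, a caudal-type homeobox factor, one of -4.52 ± 0.57 (limma adjusted p = 0.000818). CDX1 was at least 13.2-fold lower and MSGN1, a basic helix-loop-helix factor of presomitic mesoderm, at least 11.3-fold lower. Of 14 anterior streak and endoderm genes and 13 NODAL pathway genes, 0 were called by limma in either direction, and 1 gene in each list had an unadjusted p below 0.05. TBX6 and MSGN1, the paraxial markers, summed to 90.1 with IWP-2 on day 2, against 447.1 to 555.9 without inhibitor, and SOX2, a marker of undifferentiated cells, had 8.76 with IWP-2, against 5.62 without inhibitor in the same course. POU5F1 had 10.41 with IWP-2 and 10.55 without inhibitor, NANOG had 7.17 and 6.89, and the 3 markers summed to 1939 with IWP-2, against 1567 to 1672 without inhibitor. The part of these cells in the TBXT difference was not tested.

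On day 3, TBXT and EOMES differed between the arms in opposite directions. With IWP-2, TBXT had 5.79 in time course 1 and 4.30 (below background) in time course 2, against 8.73 and 8.13 without inhibitor. EOMES had 9.99 and 10.21 with IWP-2, against 8.30 and 7.41 without inhibitor. The arms did not overlap for either gene. The difference was -3.38 ± 0.34 for TBXT (SE, n = 2 each, limma adjusted p = 3.13e-05) and 2.25 ± 0.44 for EOMES (limma adjusted p = 0.0152), a 4.75-fold higher level. With TBXT near background on the IWP-2 arrays, the size of its difference ran from -1.95 without background correction to -5.43 with the authors' intensities, where it did not pass (limma adjusted p = 0.0520). The second TBXT probe was below background with IWP-2 and at least 1.56-fold lower than without inhibitor (limma adjusted p = 0.00247). The 1 gene called higher stands against 0.343% of tested probes called higher, and the 1 called lower against 0.526%.

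The EOMES call on day 3 held in 10 of 15 alternatives. It was lost without either IWP-2 array (2.42 for time course 1's, 2.08 for time course 2's) or without the control array of time course 2 (1.82). It was also lost with the authors' intensities (2.24, limma adjusted p = 0.487) and with no filter on dim probes (limma adjusted p = 0.0571). The second TBXT probe lost its call without the IWP-2 array of time course 2 (-1.25). Its call was also lost without background correction (-0.47, limma adjusted p = 0.314) and with the authors' intensities (-4.30, limma adjusted p = 0.0603). MIXL1 had 8.25 and 5.48 with IWP-2 on day 3, against 7.16 and 6.22 without inhibitor, higher with IWP-2 in time course 1 and lower in time course 2. Its difference was 0.17 with an interval of -0.90 to 1.25. MESP1 had 10.36 and 9.14 with IWP-2, against 10.85 and 10.40 without inhibitor, a difference of -0.87 with an interval of -1.82 to 0.07.

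On day 4, TBXT was below background on both IWP-2 arrays, with 4.38 and 4.22, against 5.73 and 5.72 without inhibitor. It was at least 1.71-fold lower (limma adjusted p = 0.0287), 1 of 5 genes called, against 1.33% of tested probes called lower. This call held in 7 of 15 alternatives and was lost without any 1 of the 4 arrays, with differences between -1.31 and -1.54. EOMES had 6.13 and 5.59 with IWP-2, against 5.20 and 4.88 without inhibitor, and its difference of 0.82 had an interval of -0.10 to 1.74. MESP1 had 7.04 and 6.19 with IWP-2, against 8.00 and 8.00 without inhibitor, and its difference of -1.39 ± 0.45 did not pass (limma adjusted p = 0.144). MIXL1 had 5.09 and 4.60 with IWP-2, the second below background, against 4.72 and 4.39 without inhibitor. EOMES thus lay higher and MESP1 lower with IWP-2 in both courses, but neither difference passed on this day.

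Taken as the mean of days 3 and 4, TBXT had a difference of -2.40 ± 0.24 between IWP-2 and no inhibitor (SE, n = 4 each, limma adjusted p = 1.52e-05) and EOMES one of 1.53 ± 0.31 (limma adjusted p = 0.00795). Each direction held in 4 of 4 pairs of arrays. TBXT was above background on 1 of the 4 IWP-2 arrays, and its difference ran from -1.22 without background correction to -4.94 with the authors' intensities, passing in both. The 2 calls stand against 1.74% of tested probes called higher and 1.83% called lower. The EOMES call was lost without the day 3 control array of time course 2 (1.32) and with the authors' intensities (1.77, limma adjusted p = 0.190). MESP1 was lower in 4 of 4 pairs, but its difference of -1.13 ± 0.32 did not pass (limma adjusted p = 0.0594), and passed without the day 3 IWP-2 array of time course 1 (-1.36, limma adjusted p = 0.0420). MIXL1 differed by 0.23, with an interval of -0.53 to 0.99.

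**Figure D3:**
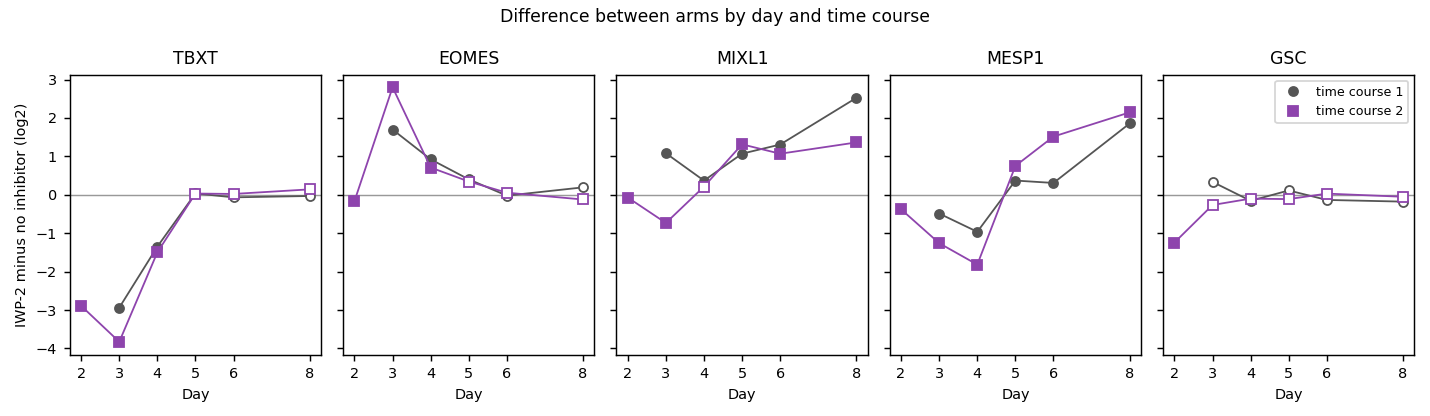
Difference in normalized log2 intensity, IWP-2 minus no inhibitor of the same course (y axis), by day (x axis) for each gene's brighter or only probe, with time course 1 as circles and time course 2 as squares. Filled points had at least 1 of the 2 arrays above background, and open points had neither. TBXT lies below 0 on days 2 to 4, EOMES above 0 on days 3 and 4, and MESP1 below 0 on days 2 to 4 and above it from day 5.

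Within the IWP-2 arm, EOMES fell by 4.24 ± 0.44 on day 4 against day 3 (SE, n = 2 each, limma adjusted p = 4.30e-05) and MESP1 fell by 3.14 ± 0.45 (limma adjusted p = 0.000828), 2 of 5 genes, against 0.714% of tested probes called lower. MIXL1 differed by -2.02 ± 0.51 and did not pass (limma adjusted p = 0.0557). Without the day 3 IWP-2 array of time course 2, MIXL1 (-3.20) and TBXT (-1.43) passed as well. The effect of IWP-2 on day 4 minus that on day 3 was 1.96 ± 0.47 for TBXT (limma adjusted p = 0.205) and -1.43 ± 0.62 for EOMES (limma adjusted p = 0.919). Of the 5 genes 0 passed with limma in that comparison (2 at an unadjusted p below 0.05, TBXT and EOMES), against 0.0543% of tested probes called higher and 0.0460% called lower, and on day 4 the TBXT levels with IWP-2 were below background. TBXT passed there without the day 3 IWP-2 array of time course 1 (2.65, limma adjusted p = 0.0203).

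Of the 24 measured streak and nascent mesoderm genes, 8 were lower and 0 higher with IWP-2 over days 3 and 4, with a median of -0.42, against 297 lower and 263 higher of 13572 and a median of 0.02. The difference was -5.13 ± 0.32 for CDX2 (SE, limma adjusted p = 9.92e-08), -3.996 ± 0.19 for CDX1 (limma adjusted p = 3.62e-09), -3.34 ± 0.47 for RSPO3 (limma adjusted p = 0.000391) and -2.39 ± 0.24 for WNT5B (limma adjusted p = 1.74e-05). These genes were lower with IWP-2, as TBXT was. Of 14 anterior streak and endoderm genes, 2 were called higher with IWP-2, namely OTX2, a homeobox factor of anterior neural tissue and anterior endoderm (1.65 ± 0.33), and CHRD, a BMP antagonist of the organizer (1.17 ± 0.19), while 0 were lower and the list median was 0.20. Of 10 measured other T-box genes, TBX3, a repressor that also acts in pluripotent and cardiac cells, had a difference of -2.40 ± 0.25 (limma adjusted p = 2.75e-05), and the other 9 did not pass.

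Markers of other cell types were read beside the EOMES and TBXT differences on day 3. The 4 definitive endoderm markers summed to 563.2 to 636.3 with IWP-2 on day 3, against 484.9 to 587.4 without inhibitor. Within that list SOX17 had 5.26 to 6.83 with IWP-2, against 6.57 to 7.24 without inhibitor, and HHEX had 6.05 to 7.01 with IWP-2 and was below background without inhibitor. Of the neuroectoderm markers, PAX6 and SOX1 were below background on every day 3 array in both arms. OTX2 carried these 3, whose sum was 784.9 to 791.6 with IWP-2, against 245.1 to 293.6 without inhibitor. OTX2 also had 9.66 and 9.05 in the undifferentiated cells of day 0. In a wider neuroectoderm list that also holds OTX2, 1 of 7 measured genes was called higher on day 3 with a median difference of 0.84, and 2 of 7 over days 3 and 4 with a median of 0.63, with 0 lower by limma in either and, in either direction, 4 and 5 at an unadjusted p below 0.05. Of all 13572 genes, 57 were called higher and 86 lower on day 3, with a median of 0.02. Over days 3 and 4, 263 were called higher and 297 lower, with a median of 0.02. At an unadjusted p below 0.05 there were 1139 on day 3 and 2240 over days 3 and 4. SOX2 had 8.29 with IWP-2 in time course 2 on day 3 and was below background in time course 1 and on both arrays without inhibitor. POU5F1 had 8.47 and 8.47 with IWP-2 on that day, against 8.79 and 8.78 without inhibitor. NANOG had 4.35 (below background) and 5.17 with IWP-2, against 4.84 (below background) and 5.12 without inhibitor. These 3 markers of undifferentiated cells summed to 398.7 to 703.2 with IWP-2, against 491.1 to 498.5 without inhibitor. The paraxial markers TBX6 and MSGN1 summed to 40.3 to 80.5 with IWP-2, against 142.8 to 170.9 without inhibitor. The part of these cell types in the 2 differences was not tested.

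On days 5, 6 and 8, MIXL1 and MESP1 were higher with IWP-2. With IWP-2, MIXL1 had 5.59 and 5.74 on day 5, 5.61 and 5.53 on day 6, and 6.95 and 5.60 on day 8. Without inhibitor it had 4.52 and 4.43, 4.30 and 4.46, and 4.42 and 4.24 on the same days. It was above background on 6 of 6 IWP-2 arrays and on 0 of 6 arrays without inhibitor. Over the 3 days MIXL1 was at least 2.02-fold higher with IWP-2 (difference 1.44 ± 0.29, SE, n = 6 each, limma adjusted p = 0.000957), and the arms did not overlap on any day.

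MESP1 had 7.60 and 7.03 with IWP-2 on day 5, against 7.23 and 6.28 without inhibitor. It had 7.18 and 7.28 with IWP-2 on day 6, against 6.87 and 5.76 without inhibitor, and 7.72 and 7.64 with IWP-2 on day 8, against 5.86 and 5.49 without inhibitor. The arms overlapped on day 5 across the courses and not on days 6 and 8, and MESP1 was higher with IWP-2 in 6 of 6 pairs of arrays. The mean was 7.41 with IWP-2 and 6.25 without inhibitor, a difference of 1.16 ± 0.26 (SE, n = 6 each, limma adjusted p = 0.00197). With 2 of 5 genes called higher, the background in this comparison was 17.2% of tested probes called higher and 35.4% called in either direction. TBXT, EOMES and GSC were below background on all 12 arrays of these days, so their differences have no reading.

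Cardiac progenitor markers moved with these days as well, with sums of 1166 to 3745 on day 5, 2019 to 3716 on day 6 and 3550 to 4454 on day 8 with IWP-2. Without inhibitor the sums were 89.4 to 90.7, 77.2 to 99.9 and 82.9 to 83.9. The part of these cells in the MIXL1 and MESP1 differences was not tested. Within the IWP-2 arm, days 5, 6 and 8 against day 4 differed by 0.99 ± 0.42 for MIXL1 (limma adjusted p = 0.116) and by 0.80 ± 0.37 for MESP1 (limma adjusted p = 0.154), so neither gene was called as rising again. EOMES was at least 1.95-fold lower in that comparison (limma adjusted p = 0.0132), 1 of 5 genes, against 8.87% of tested probes called lower. It lost its call without either day 4 IWP-2 array, at -1.13 when that of time course 1 was left out and -1.61 when that of time course 2 was.

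The change of the IWP-2 effect between the early and the late days was tested directly, in a comparison added after the values had been seen. The effect on days 5, 6 and 8 minus that on days 3 and 4 was 2.29 ± 0.41 for MESP1 (SE, limma adjusted p = 0.00145), whose difference was -1.13 early and 1.16 late. It was 2.42 ± 0.31 for TBXT (limma adjusted p = 9.28e-05) and -1.39 ± 0.40 for EOMES (limma adjusted p = 0.0277), but both genes were below background in both arms on the late days, so these values carry the early difference and do not measure a late effect. MIXL1 had 1.21 ± 0.47 and did not pass (limma adjusted p = 0.0989). MESP1 was thus the 1 gene with a called change of the effect and levels above background on the late days, where 13.4% of tested probes were called. The EOMES call held in 22 of 31 alternatives and was lost on leaving out any 1 of 7 arrays, with values between -1.18 and -1.45: the day 4 array of either arm of time course 1, the day 3 IWP-2 array of time course 2, or the control array of time course 2 on day 3, 4, 5 or 8. MIXL1 passed without the day 3 IWP-2 array of time course 1 (1.80, limma adjusted p = 0.00276).

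**Figure D4:**
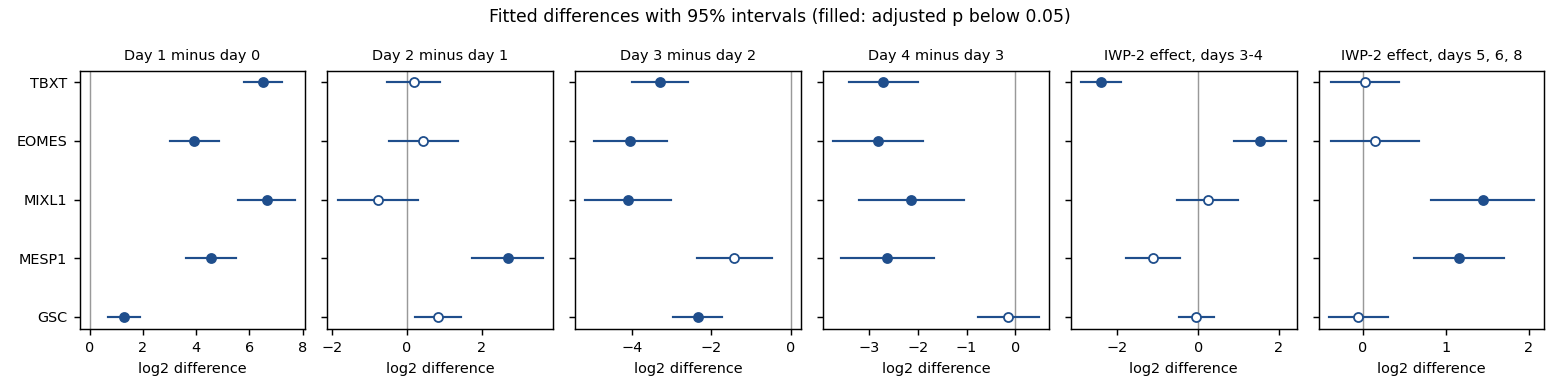
Fitted log2 differences (x axis, a scale of its own in each panel) for the brighter or only probe of each gene (y axis), with 95% intervals; filled points passed at an adjusted p below 0.05 and open points did not. The first 4 panels compare days without inhibitor (days 0 and 1 precede the arms), and the last pair shows IWP-2 minus no inhibitor. Over days 3 and 4 TBXT lies at -2.40 and EOMES at 1.53, and over days 5, 6 and 8 MIXL1 lies at 1.44 and MESP1 at 1.16.

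The 2 courses differed in the days of IWP-2, and this difference cannot be told apart from the course. The IWP-2 effect on days 3 and 4 in time course 2 minus that in time course 1 was -1.24 ± 0.50 for MIXL1, with an unadjusted 95% interval of -2.29 to -0.18 (limma adjusted p = 0.795). It was -0.65 ± 0.34 for TBXT, -0.77 ± 0.48 for MESP1 and -0.10 ± 0.50 for EOMES, with intervals of -1.37 to 0.07, -1.78 to 0.24 and -1.17 to 0.97. Of the 5 genes 0 passed with limma (1 at an unadjusted p below 0.05, MIXL1), against 0.0251% of tested probes, and these intervals leave room for differences of 1 log2 unit or more in each of these 4 genes.

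The members' levels were positively correlated over the 27 arrays, which share the 2 courses and the same days, although TBXT and EOMES parted with IWP-2 on day 3. Pearson's r between genes, each by its brighter or only probe, ran from 0.63 (MESP1 and GSC) to 0.90 (TBXT and MIXL1). Among 3926 other genes with a range of at least 2 log2 units, the levels most like TBXT were those of SP5 (r = 0.93), PRAC1 (0.92) and CD1D (0.91). CHGA (0.94), BCL11B (0.93) and MIR9-1HG (0.93) were most like EOMES, and DIPK2A (0.90), SLC39A8 (0.86) and CBR3 (0.85) most like MIXL1. WNT8A (0.89), WNT3A (0.87) and LHX1 (0.86) were most like MESP1, and C2orf80 (0.96), BARX1 (0.93) and DKK4 (0.92) most like GSC. No gene was among the 3 most like of more than 1 member.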

How the data were processed

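Per the labels' protocols, total RNA from RNeasy columns was DNA digested, amplified with biotin labelling and put on Illumina bead arrays. The deposited scanner table gives each probe's signal intensity and detection p-value on each array, per the file headers; detection columns share 1 header name and were paired with the signal column at their left. The submitters' processing notes name GenomeStudio. The authors' processed intensity table has the same median in all arrays of a course (6.876 in time course 1, 4.630 in time course 2); how it was normalized is not given in these sources, and it served as an alternative.

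Background correction and quantile normalization used neqc (detection p-values, offset 16) in limma 3.58.1 under R 4.3.3. The 23933 probes detected below 0.01 on at least 2 arrays were fitted with 1 mean per day and arm (14 groups) and the time course as a block, leaving 12 residual degrees of freedom, with lmFit and eBayes and Benjamini-Hochberg adjustment. The block follows the labels, which make the arm without inhibitor its course's control, and the 13 groups of 2 arrays deviated together between courses (r from 0.137 to 0.785, over 0.1 in 78 of 78 pairs of groups). The window of IWP-2 was tested with course by arm terms. The fits were tested on simulated data.

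The brightest probe stood for a gene. Named genes were all member probes, the 3 genes of highest correlation with each, and up to 4 passing genes of each list. Members and lists were chosen with earlier results of these data known. The comparisons of late with early effects, of day 4 with day 3 (effect and IWP-2 arm) and of days 5, 6 and 8 with day 4 were added after seeing the values. Alternatives covered the block, normalization, background correction, the authors' table, filters, probes per gene, variance model, array weights, the threshold and each array left out. A slide block was not run, as the files name no slide.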

Additional observations from a re-analysis of the deposited data

Results flagged for a closer look

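In 4 probes of the members the effect of IWP-2 on the late days (5, 6 and 8) differed from that on the early days (3 and 4) by a test of the difference itself in limma. That comparison was added after the values had been seen. The late effect minus the early effect was 2.42 log2 units for TBXT and 0.71 for its second probe. Both probes were below background in both arms on the late days, so the value carries the early difference of -2.40 and -0.75, and the second probe lost its call without the day 3 IWP-2 array of time course 2 (0.67) or the day 4 control array of time course 2 (0.64). For EOMES it was -1.39, with an early difference of 1.53 and levels below background in both arms on the late days. For MESP1 it was 2.29, and this was the member above background on all early and late arrays, with -1.13 early and 1.16 late.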

How the results depend on the processing

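Of 1292 values of single member probes under alternatives, 1185 kept their direction and their side of the threshold; among the other 107, 53 came from other settings and 54 from leaving out an array. 5 and 12 of these changed sign, none of them called. MIXL1, effect on day 4 minus day 3: -0.025 with median scaling, -0.15 without background correction, -1.06 to 1.30 leaving out arrays. EOMES, time course 2 minus 1: 0.055 without background correction, 0.078 with the authors' intensities, 0.050 with array weights, -0.47 to 0.28 leaving out arrays; TBXT there -1.32 to 0.017. TBXT day 2 minus day 1 was -0.27 and its second probe -0.30 without the day 2 array of time course 1, with 0.62 as the highest of either. MIXL1 on day 3 ran from -1.005 to 1.35 and over days 3 and 4 from -0.36 to 0.82, lowest without the day 3 IWP-2 array of time course 1, and was -0.022 on day 3 without the control of time course 2. Numbers of member genes that passed moved by over 1.5 times as follows, unless smaller moves are named. These numbers include GSC, which entered the tests only through the days on which it is high. Without the replicate block, 0 passed for IWP-2 on day 4 (1 with the block) and 3 for day 4 against day 3 without inhibitor (4 with it, MIXL1 at an adjusted p of 0.156 in limma without it), and the number was the same in the other 13 comparisons that have this fit; the window test has no fit without it. Without background correction 0 passed on day 4, 1 over days 5, 6 and 8 (main 2), and 0 in either arm for days 5, 6 and 8 against day 4 (main 1 with IWP-2, 2 without). With the authors' intensities 2 passed for day 3 against day 2 (main 4), 0 for day 4 against day 3 (main 4), 0 for IWP-2 on days 2, 3 and 4 (main 1, 2 and 1) and 1 over days 3 and 4 (main 2). For day 1 against day 0, 4 passed (main 5) without background correction, with the authors' intensities, with no filter, with array weights and at a threshold of 0.01, and for day 2 against day 0, 4 (main 5) with the authors' intensities. The gene lost in each of these settings was GSC. For day 3 against day 2, 5 passed (main 4) with median scaling, without background correction and with array weights, and over days 3 and 4, 3 (main 2) with array weights. For day 4 against day 3, 3 passed (main 4) with median scaling, without background correction, with no filter, at a detection p-value of 0.05, with intensity trend and robust variance and at a threshold of 0.01, and with IWP-2 3 (main 2) with array weights. For late minus early, 2 passed (main 3) with no filter and at a threshold of 0.01. With no filter 1 passed on day 3 and 0 on day 4; with array weights 2 on day 4; at a threshold of 0.01, 1 on day 3, 0 on day 4 and 0 for days 5, 6 and 8 against day 4 with IWP-2. Leaving out arrays gave 1 to 2 for day 2 against day 1, 1 to 3 for day 4 against day 3 and 2 to 4 with IWP-2, 1 to 2 on day 2, 1 to 2 on day 3, 0 to 0 on day 4, 1 to 3 over days 3 and 4, 0 to 1 for the effect on day 4 minus day 3, and for days 5, 6 and 8 against day 4 0 to 1 with IWP-2 and 0 to 2 without inhibitor. The day 2 IWP-2 array, alone in its group, could not be left out, and a slide block was not run. TBXT over days 3 and 4 passed in 19 of 19 alternatives, EOMES in 17 of 19, MESP1 over days 5, 6 and 8 in 23 of 23 and MIXL1 in 22 of 23. Over all settings the tested probes that passed were 211 to 599 for day 1 against day 0 (main 575), 1352 to 2637 for day 2 against day 0 (2621), 667 to 2570 for day 2 against day 1 (2160), 480 to 1899 for day 3 against day 2 (1320) and 70 to 693 for day 4 against day 3 (404). For IWP-2 they were 14 to 95 on day 2 (57), 58 to 298 on day 3 (208), 125 to 1134 on day 4 (607), 386 to 1493 over days 3 and 4 (854) and 5417 to 8560 over days 5, 6 and 8 (8462). They were 1394 to 4088 for late minus early (3197), 0 to 66 for day 4 minus day 3 (24), 0 to 22 for the window (6), 118 to 884 for day 4 against day 3 with IWP-2 (414), and for days 5, 6 and 8 against day 4 1574 to 5251 with IWP-2 (4181) and 160 to 1580 without (1027). Median scaling moved the median of all probes by over 0.1 on day 3 (0.13 against 0.02) and for late minus early (-0.19 against -0.04). The share of calls that were higher was then 53.6% against 39.4% on day 3, 69.6% against 48.8% over days 3 and 4, 26.1% against 53.3% for late minus early, 37.0% against 26.3% on day 2, 60.3% against 47.6% on day 4, 37.4% against 48.5% over days 5, 6 and 8, 34.5% against 47.0% for day 3 against day 2, and, for days 5, 6 and 8 against day 4, 37.7% against 49.2% with IWP-2 and 73.3% against 57.6% without. The causes were not tested. Signals near background limit GSC on all days, TBXT with IWP-2 from day 3 and without it from day 4, EOMES from day 4 and MIXL1 on days 3 to 8.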
